A study of Mus musculus with 4 samples.

Results

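The genes of oxidative phosphorylation are described here in the stria vascularis (SV), the epithelium of the cochlear lateral wall that makes the endocochlear potential. The members were chosen by name, with earlier results of these data known. They are the genes listed for both whole cells and nuclei whose symbol starts with Nduf, Uqcr, Cox4 to Cox8, Atp5 or Sdh followed by a letter, and the mitochondrial symbols that start with mt-Nd, mt-Co, mt-Cyb or mt-Atp. This gave 108 of 27873 genes, 96 encoded in the nucleus and 12 in the mitochondrial genome. By complex, the nuclear members comprised 36 subunits of complex I, 4 of complex II, 8 of complex III, 20 of complex IV, 15 of complex V and 13 assembly and related factors. The gene for cytochrome b is spelled mt-Cytb in the files and so falls outside the chosen spellings. It is described beside the 12 as the 13th mitochondrial gene that codes for a protein.

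Oxidative phosphorylation passes electrons from NADH through complex I, or from succinate through complex II, to complexes III and IV, while protons are pumped out of the mitochondrial matrix. Complex V, the ATP synthase, uses their return to make ATP. Complexes I, III, IV and V are built from subunits of both genomes, whereas complex II is encoded in the nucleus alone. In the SV, marginal cells line the endolymph, secrete potassium through the channel encoded by Kcnq1 and Kcne1, and are known for their dense mitochondria. Intermediate cells are pigmented cells of neural crest origin, basal cells form a tight-junction layer, and spindle and root cells lie at the borders of the SV.

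Cells and nuclei came from the SV of untreated CBA/J mice at postnatal day 30, with no allele introduced in any group. Single-cell RNA-Seq was run on 3 captures of dissociated cells and single-nucleus RNA-Seq on 1 capture of nuclei, each a suspension pooled from several animals, so that the capture was taken as the replicate. P-values therefore measure how the differences between types varied over the captures, with each gene's spread drawn towards that shared by all genes tested. A very small p thus does not come from the 3 captures of that gene alone. Nuclei have no replicate. The chemistry tags 3′ ends and counts unique molecular identifiers (UMIs), so that levels were compared between cell types within a gene and not between genes.

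After filtering, 377, 1314 and 1461 cells and 9723 nuclei remained, from total depths of 2811309, 8113494, 8340882 and 22332501 UMIs. The cell captures shared 0 to 6 barcodes with each other and 7 to 32 with the nuclei. Clusters were formed without the members and without any mt- gene, and were named from marker genes, which gave 133 marginal-like, 1024 intermediate-like, 88 basal-like and 31 spindle/root-like cells, called by these names from here on. Only 27 spindle/root cells entered the sums, from captures 2 and 3, since capture 1 had fewer than 5. They pooled a cluster high in Epyc and Lum (11 and 6 cells in captures 2 and 3) and another high in Wfdc18 and Anxa1 (4 and 6 cells). Nuclear members held 3.97% and 3.13% of UMIs outside mt- genes over all cells of these clusters. The clusters were not tested apart, so differences between the 2 spindle/root sums also hold their unlike mix. The capture of nuclei held 2592 marginal, 3059 intermediate, 665 basal and 203 spindle/root barcodes, called nuclei here. Of the intermediate ones, 1585 had Malat1, a nuclear RNA, at 0.776% of UMIs outside mt- genes, against 30.9% in a cluster of 1306. Whether the former are nuclei was not tested. In 1642 cells and 2322 nuclei no class of markers met the naming rule. The markers of each of the 4 types were highest in the type they name in every capture, which the naming largely fixed in advance. Markers of intermediate cells were nevertheless found in all types. Their summed level was 34403 to 44149 CPM in intermediate cells (UMI counts scaled to the same total in every sum, here the UMIs outside mt- genes), 8753 to 13439 in marginal, 11841 to 16019 in basal and 801 to 2718 in spindle/root cells, against 418 to 1573 in erythroid cells, which should lack these genes. Results are therefore also given for cells with little intermediate RNA, in which barcodes of the other 3 types were kept only if their share of intermediate markers was below 10% of the median in intermediate cells. This left 46 marginal, 15 basal and 24 spindle/root cells.

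Promoter sequence is shown for 3 genes of complex IV around which the differences between types were organised, namely Cox7a1, which led in marginal cells, Cox8b, which led in intermediate cells, and Cox6a1, which was higher in both. Each line holds the 250 bases before the RefSeq transcription start on GRCm38.p6, read 5′ to 3′ on the gene's strand. The first is chr7:30183921-30184170 on the plus strand, the next is chr7:140900447-140900696 on the minus strand and the last is chr5:115348959-115349208 on the minus strand. Capitals mark matches on either strand to GCATGCG, the core of the site of nuclear respiratory factor NRF1, and to CCGGAAG, the core site of the ETS family to which GABPA belongs.
Cox7a1: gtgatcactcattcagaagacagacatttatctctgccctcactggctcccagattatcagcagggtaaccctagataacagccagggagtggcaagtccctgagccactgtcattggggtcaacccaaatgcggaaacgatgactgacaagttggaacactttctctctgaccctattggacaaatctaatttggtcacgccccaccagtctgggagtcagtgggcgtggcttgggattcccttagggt
Cox8b: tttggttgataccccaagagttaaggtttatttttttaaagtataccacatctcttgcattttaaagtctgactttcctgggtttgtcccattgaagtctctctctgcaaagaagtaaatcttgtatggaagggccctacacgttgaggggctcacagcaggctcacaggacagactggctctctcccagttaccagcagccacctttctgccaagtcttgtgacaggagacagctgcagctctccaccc
Cox6a1: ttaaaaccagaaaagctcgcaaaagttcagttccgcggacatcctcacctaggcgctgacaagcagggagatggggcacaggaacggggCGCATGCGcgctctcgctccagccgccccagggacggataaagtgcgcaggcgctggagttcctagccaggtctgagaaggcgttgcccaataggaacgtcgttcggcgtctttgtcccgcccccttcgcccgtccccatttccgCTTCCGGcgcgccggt

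The printed Cox6a1 bases held the NRF1 core once on each strand, as 2 overlapping matches, and the ETS core apart from it, and the other 2 windows held neither. Over 77 of the 96 nuclear members matched in the RefSeq table, in windows that ran from 250 bases before to 50 bases after the start and on both strands, the NRF1 core was found in 15.6% and the ETS core in 24.7%. Among all 27025 promoters of the table the shares were 3.64% and 9.12%. GATGGCG, part of the site of YY1, was present in 10 of the 77 members and 3.66% of all promoters, and TNAAGGTCA, a site of estrogen-related receptors, in 3.90% and 1.26%. The median GC content was 56.8% in the members' windows and 52.0% in all. A match is a description of letters and not of binding.

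The mitochondrial part took a large share of the RNA, and the share differed between types. In whole cells, mt- genes held 32.7%, 34.7% and 38.8% of all UMIs of intermediate cells in captures 1, 2 and 3. The share was 25.2%, 27.7% and 28.2% in marginal cells, 23.9%, 25.4% and 30.4% in basal cells, and 15.2% and 12.6% in spindle/root cells of captures 2 and 3. Summed over all the named cells, intermediate cells were highest in each capture and did not overlap with any other type. Spindle/root cells were lowest, and marginal and basal cells overlapped. A cluster of 313 unnamed cells with 4 raised marginal markers had 44.4% mt- UMIs and 6.69% nuclear members outside mt- genes. It missed the naming condition on own marker level, and the order with these cells counted as marginal was not tested. The intermediate cells were of 2 kinds, however. A cluster of 656 cells had 34.9%, 37.9% and 41.2% mt- UMIs in captures 1, 2 and 3, with Malat1, a nuclear RNA, at 6.24% of UMIs outside mt- genes. A cluster of 368 cells had 19.2%, 22.4% and 28.9%, with Malat1 at 16.1%, and overlapped with marginal and basal cells. Over the 1024 intermediate cells of 3 suspensions, Spearman's rho between the mt- share and the Malat1 share was −0.697, and the part of this in the difference between types was not tested. Cells of blood origin were lower still, at 3.75% ± 0.0670 in erythroid cells (SD, n = 2) and 4.95% to 6.15% in macrophages.

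**Figure D1:**
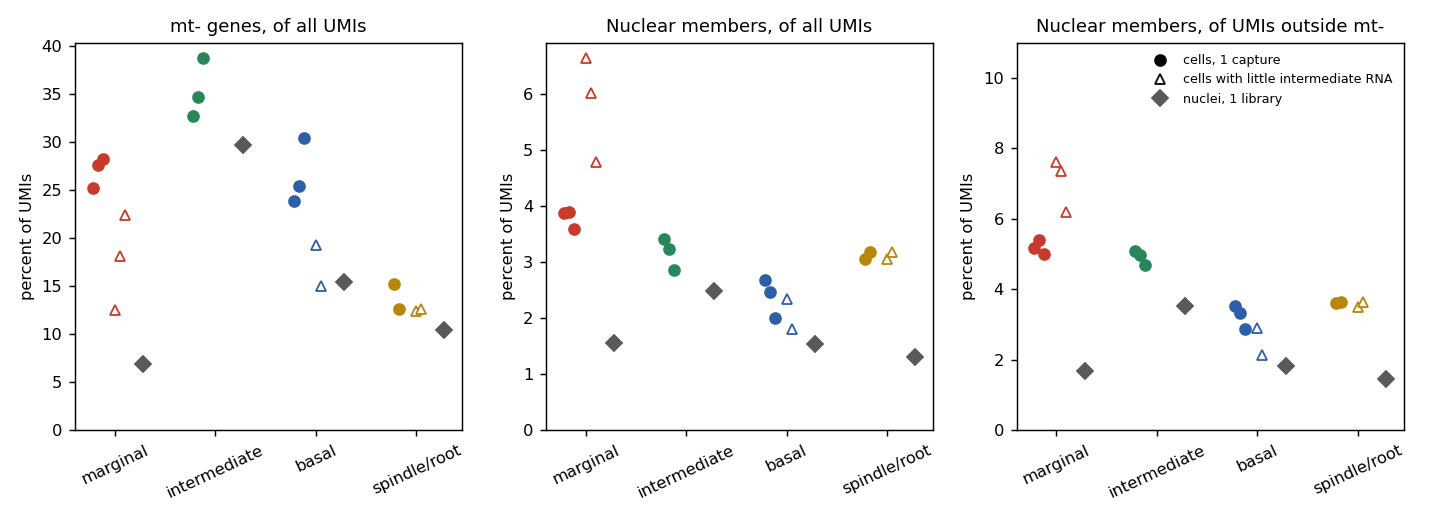
Share of UMIs by SV type and capture, with each circle 1 capture of cells, each open triangle the cells of a capture with little intermediate RNA, and each diamond the nuclei. The panels give mt- genes as a percent of all UMIs, nuclear members as a percent of all UMIs, and nuclear members as a percent of UMIs outside mt- genes. Intermediate cells were highest for mt- genes (32.7% to 38.8%), while marginal cells were highest for nuclear members in each capture (5.01% to 5.39% outside mt- genes).

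The nuclear part was ordered differently. The 96 nuclear members held 3.88%, 3.90% and 3.60% of the RNA counted in marginal cells, 3.42%, 3.25% and 2.87% in intermediate cells, 2.68%, 2.47% and 2.00% in basal cells, and 3.05% and 3.18% in spindle/root cells. With mt- genes out of the total, the shares were 5.18%, 5.39% and 5.01% in marginal cells, 5.09%, 4.97% and 4.68% in intermediate cells, 3.52%, 3.31% and 2.88% in basal cells, and 3.60% and 3.64% in spindle/root cells. Marginal cells were above intermediate cells in each capture on both totals, but outside mt- genes the ranges of the 2 types overlapped. Basal cells lay below the other 3 types on both totals, without overlap. For every 100 UMIs of mitochondrial members, marginal cells had 14.1 ± 1.32 from nuclear members (SD, n = 3), intermediate cells 9.07 ± 1.54, basal cells 9.18 ± 2.37 and spindle/root cells 22.6 ± 3.62 (SD, n = 2).

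RNA of intermediate cells moved with these shares. In marginal cells with little intermediate RNA, mt- genes held 12.5%, 18.1% and 22.4% of UMIs, below each of the values over all marginal cells, and nuclear members held 7.61%, 7.35% and 6.19% of UMIs outside mt- genes, above each of them. In basal cells with little intermediate RNA the mt- share was 19.3% and 15.0% and the nuclear share 2.90% and 2.13%. The order of marginal above basal cells for nuclear members thus held in these cells with a larger gap, whereas the mt- shares of the 2 types again overlapped. The 133 marginal cells fell into sub-clusters of 58, 41 and 34 cells, with intermediate markers at 1.56%, 0.573% and 0.0548% of UMIs outside mt- genes and nuclear members at 4.24%, 5.96% and 7.06%. The mt- share was 28.7%, 33.2% and 12.3% in them and so did not follow the markers in order, although it was lowest where they were lowest. Across the 133 marginal cells, which share 3 suspensions, Spearman's rho between the share of intermediate markers and that of nuclear members was −0.626, and 0.503 for mt- genes. Across the 88 basal cells the values were 0.168 and 0.722. These are descriptions over cells and carry no p.

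**Figure D2:**
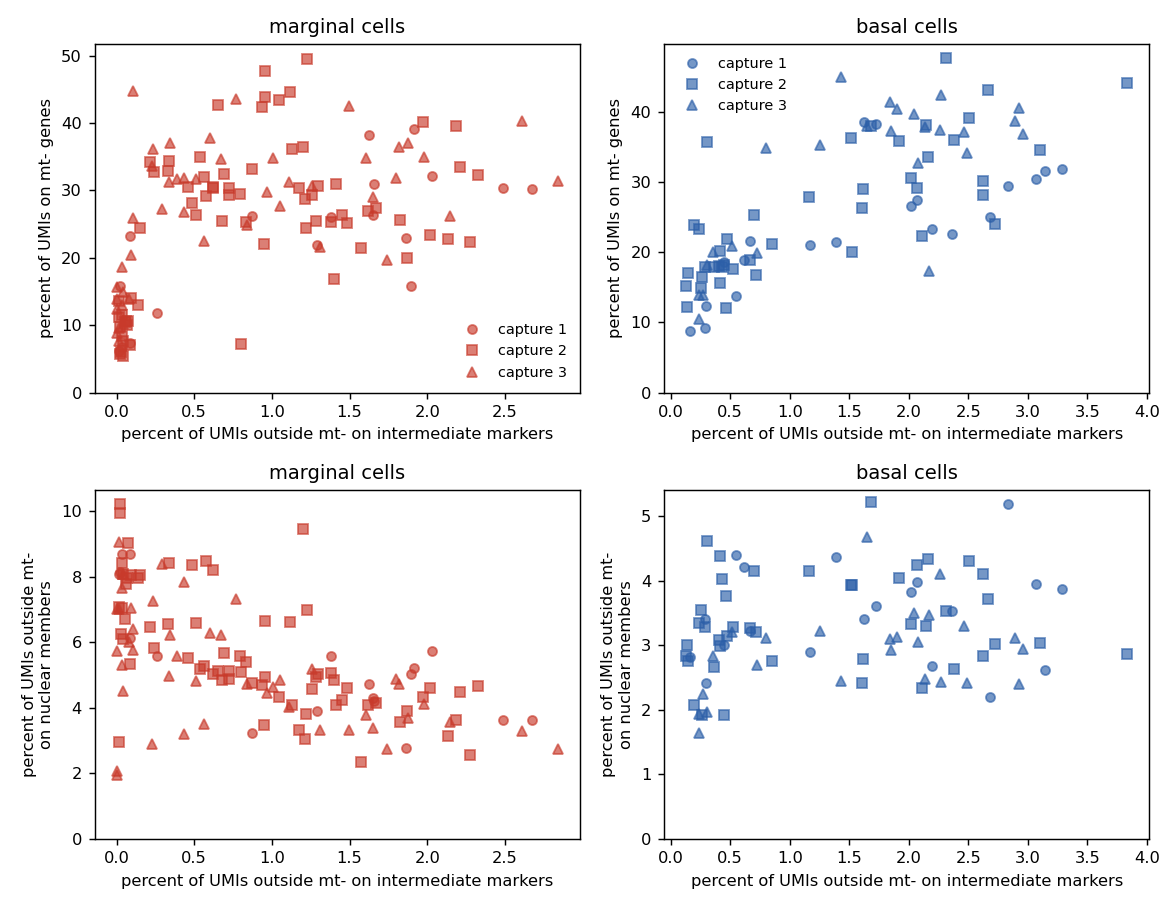
Single marginal and basal cells, with the share of UMIs outside mt- genes on intermediate markers on the horizontal axis and the share on mt- genes or on nuclear members on the vertical axis. Each point is 1 cell of the 133 marginal or 88 basal cells. Marginal cells with few intermediate markers had low mt- and high nuclear member shares (rho 0.503 and −0.626).

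Single members were then compared between types by edgeR's quasi-likelihood test on UMIs summed per capture and type, each type against the mean of the other 3, with Benjamini-Hochberg adjustment over all 7409 genes tested. The types had been formed from other genes of the same cells. By this construction the differences of a gene over the types sum to about 0. A low level in a type thus raises the differences of the others, and the counts by type are not independent. Of the 96 nuclear members, 85 passed the filter on low counts, which keeps a gene that is high in a single type, so that the counts do not stand for all members. In marginal cells 41 of the 85 were higher and 0 lower at an adjusted p under 0.05, against 15.7% of all genes tested that were higher and 9.72% that were lower. In intermediate cells 36 were higher and 3 lower, against 17.5% and 16.7% of all genes. In basal cells 0 were higher and 61 lower, against 15.1% and 10.1%. In spindle/root cells 6 were higher and 11 lower, against 12.8% and 9.68%. The median log2 difference of the 85 was 0.33 in marginal, 0.25 in intermediate, −0.60 in basal and −0.02 in spindle/root cells, and that of all genes was 0.08, 0.03, 0.02 and −0.11.

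The counts are given again for other ways of processing, each beside the share of all genes called under the same setting. With every mt- gene out of the table and of the total, 38 of 84 tested members were higher in marginal cells (14.8% of all genes), 46 higher and 3 lower in intermediate cells (20.3% and 15.6%), 61 lower in basal cells (9.96%), and 6 higher and 11 lower in spindle/root cells (12.4% and 10%). Leaving out capture 2 gave 27 higher in marginal (12.2%) and 23 higher in intermediate cells (14.1%), and leaving out capture 3 gave 2 higher and 6 lower in spindle/root cells (6.34% and 4.15%). DESeq2 called 27 higher in marginal (10.7%) and 20 higher in intermediate cells (11%). The count for intermediate cells also depended on scaling. Without the trimmed mean of M-values (TMM), 8 were higher and 16 lower there (9.29% and 30.3% of all genes), with a median of −0.09 against −0.31 over all genes. In spindle/root cells 17 were then higher and 5 lower (16.3% and 6.15%), with a median of 0.21 against 0.13. These totals include mt- genes. With mt- genes also out of the total and no TMM, the median over all 7237 genes was −0.03 in intermediate and −0.21 in spindle/root cells. In intermediate cells 1124 of these genes were then higher and 1329 lower. Calls of members under that setting are not given here.

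In cells with little intermediate RNA 73 of 81 tested members were higher in marginal cells and 1 lower (22% and 19.1% of 3075 genes), with a median of 0.96, and 57 were lower in basal cells (14.9%), with a median of −1.10. At a clustering resolution of 0.4 only 65 cells were named marginal, their nuclear members held 4.28% of UMIs outside mt- genes, and 12 members were higher and 12 lower (13.8% and 8.03%). The excess therefore did not hold in the cells named marginal under that clustering, whereas in basal cells 29 members were still lower and 0 higher (7.95% and 14.5%). A cluster of 83 cells with 8 raised marginal and 2 raised spindle/root markers was left unnamed there. Its marginal markers were at 1.32 times their level in the 65 cells, and its members were not tested.

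**Figure D3:**
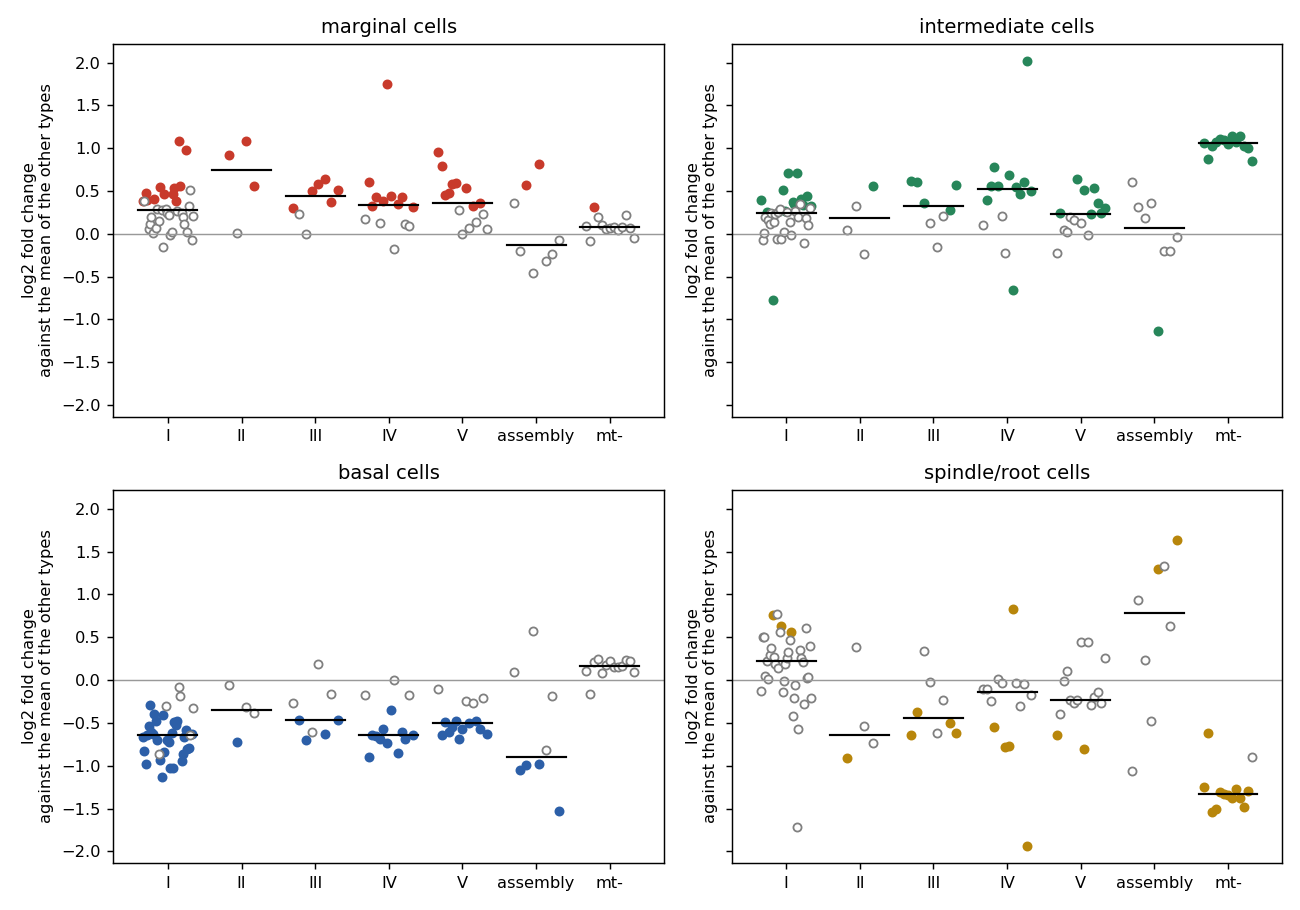
Log2 difference of each tested member between a type and the mean of the other 3 types, grouped by complex, with each point 1 gene and filled points those with an adjusted p under 0.05. Basal cells show 61 of 85 nuclear members lower and spindle/root cells 12 of 13 mitochondrial genes lower, against 10.1% and 9.68% of all genes. Without TMM scaling the median of the nuclear members in intermediate cells went from 0.25 to −0.09, and that of all genes from 0.03 to −0.31. In spindle/root cells the median of the nuclear members went from −0.02 to 0.21, and that of all genes from −0.11 to 0.13.

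By complex, marginal cells had 12 of 36 complex I subunits higher, 3 of 4 of complex II, 6 of 8 of complex III, 9 of 14 tested of complex IV, 9 of 15 of complex V and 2 of 8 tested assembly factors. Of all genes 15.7% were higher there. Complex II, which also serves the citric acid cycle, had the largest median of the 5 complexes there, at 0.74. In intermediate cells the counts were 12, 1, 5, 10, 8 and 0 higher in the same order, against 17.5% of all genes. Complex I, complex IV and the assembly factors had 1 lower each, against 16.7% of all genes. Complex IV had the largest median there, at 0.52. Without TMM scaling these counts became 1, 0, 2, 4, 1 and 0 higher and 7, 1, 0, 3, 4 and 1 lower. Of all genes 9.29% were then higher and 30.3% lower. In basal cells 30 of the 36 complex I subunits were lower, and 1, 4, 11, 11 and 4 in the other groups, against 10.1% of all genes. In spindle/root cells complex I had 3 of 36 higher and 0 lower, a share of higher genes below the 12.8% of all genes. Complex III had 4 lower, complex IV 1 higher and 4 lower, complex V 2 lower and complex II 1 lower, while 2 assembly factors were higher. Of all genes 9.68% were lower there. Without TMM scaling complex I had 11 higher there, and complex III 1 higher and 1 lower, against 16.3% of all genes higher and 6.15% lower.

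The member with the largest difference in marginal cells was Cox7a1, on chromosome 7 at 30184144 to 30186078 of mm10, which encodes the isoform of complex IV subunit VIIa known from heart and skeletal muscle. Its level was 697, 902 and 882 CPM outside mt- genes in marginal cells of captures 1, 2 and 3. It was 284, 271 and 269 CPM in intermediate, 245, 196 and 235 in basal, and 138 and 283 in spindle/root cells. Each marginal sum was above every sum of the other types, and spindle/root cells overlapped with both of the others. The log2 difference was 1.75 ± 0.12 (SE; edgeR quasi-likelihood, Benjamini-Hochberg adjusted p = 2.37e-30), and in cells with little intermediate RNA, where marginal cells had 1482, 1437 and 1302 CPM, it was 2.81 ± 0.19. Cox7a1 was also lower in spindle/root cells, by a log2 difference of −0.78 that lost its call in 8 of 20 alternatives, among them no TMM scaling and the omission of capture 2 (adjusted p = 0.404 by the same test).

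The related isoform Cox7a2, found in most tissues, was not specific in this way. It stood at 1933, 1800 and 1639 CPM in marginal and 1886, 1825 and 1811 CPM in intermediate cells, which overlapped, against 1326, 1140 and 957 in basal and 807 and 850 in spindle/root cells. It was higher in both marginal (0.44) and intermediate cells (0.68) on the log2 scale. Cox7a2l, a related protein that takes part in joining complexes III and IV into supercomplexes, ran the other way, at 595 and 604 CPM in spindle/root cells, 378, 414 and 364 in marginal, 397, 434 and 392 in basal and 258, 284 and 279 in intermediate cells. It was highest in spindle/root cells (log2 difference 0.83 ± 0.17) and lowest in intermediate cells (−0.65 ± 0.11), with no overlap of either with another type.

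Cox8b, on chromosome 7 at 140898945 to 140900446, encodes the isoform of complex IV subunit VIII of heart and skeletal muscle and led in intermediate cells. It reached 3892, 3579 and 3795 CPM there, against 1363, 1581 and 1546 in marginal, 1597, 1129 and 1108 in basal and 488 and 431 in spindle/root cells. Intermediate cells were above and spindle/root cells below all other sums, and marginal and basal cells overlapped. The log2 difference was 2.02 ± 0.10 in intermediate cells (edgeR quasi-likelihood, Benjamini-Hochberg adjusted p = 6.74e-45) and −1.94 ± 0.17 in spindle/root cells (3.60e-20 by the same test). The Cox8b level of basal cells with little intermediate RNA was 710 and 345 CPM, below that of all basal cells, whereas marginal cells with little intermediate RNA had 1441, 1380 and 1535 CPM.

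The ubiquitous isoform Cox8a also led in intermediate cells, on a narrower scale. Its level was 3462, 3321 and 3467 CPM in intermediate, 2785, 3029 and 2911 in marginal, 2506 and 2354 in spindle/root and 1788, 1822 and 1942 in basal cells, with no overlap between types. The log2 difference was 0.61 ± 0.09 in intermediate and −0.68 ± 0.10 in basal cells. Cox6a1, the isoform of subunit VIa found outside striated muscle, was higher in intermediate (0.78 ± 0.09) and in marginal cells (0.43 ± 0.10). It stood at 1754, 1772 and 1658 CPM in intermediate cells and 1613, 1546 and 1586 in marginal cells, above 940, 967 and 683 in basal and 881 and 813 in spindle/root cells.

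**Figure D4:**
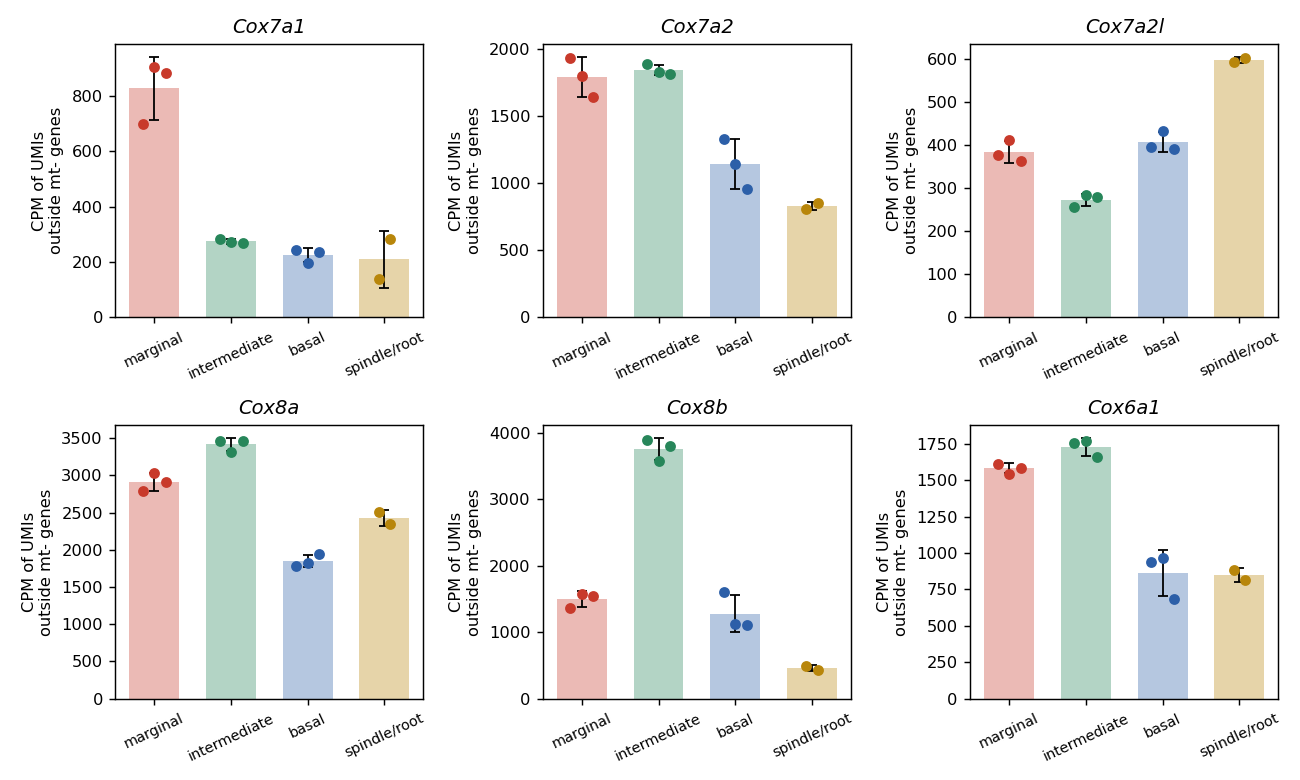
CPM outside mt- genes of Cox7a1, Cox7a2, Cox7a2l, Cox8a, Cox8b and Cox6a1, members grouped with complex IV, by SV type, with each point 1 capture of cells. Cox7a1 was highest in marginal cells (697 to 902) and Cox8b in intermediate cells (3579 to 3892).

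Cox4i1, the common isoform of subunit IV, was not called in any type and stood at 1668 ± 90.5 CPM in marginal, 1466 ± 129 in intermediate and 1347 ± 266 in basal (SD, n = 3) and 1269 ± 52.0 in spindle/root cells (SD, n = 2). The common subunits Cox6b1, Cox7b and Ndufa4 were higher in intermediate cells, by log2 differences of 0.56, 0.54 and 0.50, and lower in basal cells, by −0.69, −0.86 and −0.64. Cox7b (0.35) and Ndufa4 (0.31) were higher in marginal cells too. Several tissue isoforms were near or at 0. Cox7b2, Cox6a2 and Cox8c had 0 UMIs in the sums, Cox4i2 had 3 and Ndufa4l2 had 5. Cox6b2, known as a testis isoform, had 164 UMIs, below the filter. The other 5 members that were not tested were Ndufaf1, Ndufaf5, Ndufaf6, Atp5s and Atp5sl.

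The 3 genes that encode the same subunit c of complex V differed. Atp5g1 was higher in intermediate cells (log2 difference 0.65 ± 0.10, at 653, 669 and 641 CPM) and lower in basal cells (−0.68 ± 0.13, at 409, 337 and 302 CPM). In marginal cells it stood at 522, 708 and 524 CPM, which overlapped with intermediate cells. Atp5g3 was higher in marginal (0.54 ± 0.11) and intermediate (0.52 ± 0.10) and lower in spindle/root cells (−0.81 ± 0.18), where it was 361 and 357 CPM against 937, 835 and 777 in marginal cells. Atp5g2 was lower in basal cells only (−0.57 ± 0.12), at 394, 386 and 297 CPM, and was not called in the other 3 types.

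In complex II, Sdha, the flavoprotein that oxidises succinate, was 554, 496 and 550 CPM in marginal cells, 313, 277 and 331 in intermediate, 317, 298 and 302 in basal and 234 and 123 in spindle/root cells. Marginal cells lay above and spindle/root cells below the other types, which overlapped, and the spindle/root difference of −0.91 ± 0.24 was lost without capture 3 (adjusted p = 0.300 by edgeR). Sdhc, a membrane anchor, was 288, 252 and 245 CPM in marginal cells and between 74.3 and 138 CPM in all other sums. The log2 differences in marginal cells were 0.92 ± 0.13 for Sdha and 1.09 ± 0.16 for Sdhc (edgeR quasi-likelihood, Benjamini-Hochberg adjusted p = 2.14e-10 and 2.56e-09). Sdhd, the other anchor, was higher in marginal and in intermediate cells, by 0.56 in each, and Sdhb, the iron-sulphur subunit, was not called in either and was lower in basal cells (−0.72 ± 0.19).

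In complex I, Ndufs6, an accessory subunit needed for its assembly, was 703, 756 and 821 CPM in marginal cells and between 291 and 423 CPM elsewhere, without overlap. The log2 difference was 0.97 ± 0.11 (edgeR quasi-likelihood, Benjamini-Hochberg adjusted p = 3.81e-14), and the call was lost at a resolution of 0.4 (0.143 by the same test). Ndufs1, the largest core subunit, was counted at 1 to 120 UMIs per sum, and its values of 101, 73.0 and 105 CPM in marginal and 95.1, 60.9 and 58.6 CPM in intermediate cells overlapped. It was called higher in both, by 1.09 ± 0.29 and 0.71 ± 0.27, but in intermediate cells the call was lost in 7 of 20 alternatives, including the omission of capture 1, 2 or 3 (adjusted p = 0.0927, 0.130 and 0.0722 by the same test), and in marginal cells it was lost without capture 3 (0.111). Ndufa6, another accessory subunit, was 313, 300 and 311 CPM in intermediate cells, below 375 to 436 in basal, 573 to 668 in marginal and 665 and 669 in spindle/root cells. It was lower in intermediate cells (−0.77 ± 0.10) and higher in spindle/root cells (0.76 ± 0.16).

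Of the 4 members named for basal cells, a pair were accessory subunits of complex I, with differences smaller than that of the assembly factor Sdhaf4 described below. Ndufb10 was 157, 136 and 95.2 CPM in basal cells, below all other sums, which ran from 202 to 382 CPM. Ndufb6 was 130, 99.3 and 67.2 CPM in basal cells and 287, 242 and 158 CPM in intermediate cells, while marginal (137 to 197) and spindle/root cells (123 and 202) overlapped with intermediate cells and spindle/root cells with basal cells. The log2 differences in basal cells were −1.13 ± 0.17 and −1.02 ± 0.19 (edgeR quasi-likelihood, Benjamini-Hochberg adjusted p = 1.13e-08 and 4.50e-06). Ndufb6 was higher in intermediate cells, by 0.71 ± 0.13.

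Among assembly factors, Sdhaf4, which escorts Sdha into the complex, was 127 and 222 CPM in spindle/root cells, 53.2, 85.2 and 87.3 in marginal, 91.2, 70.1 and 69.6 in intermediate and 45.8, 34.6 and 28.0 in basal cells. It was higher in spindle/root cells (1.63 ± 0.34) and lower in basal cells (−1.53 ± 0.27), from 5 to 15 UMIs a capture in the latter. Sdhaf1, which matures the iron-sulphur subunit, was 22.5, 30.5 and 29.9 CPM in intermediate cells and 84.9 and 123 CPM in spindle/root cells. It was lower in intermediate cells by −1.13 ± 0.23 and higher in spindle/root cells by 1.30 ± 0.42, the latter from 8 and 10 UMIs. Ndufaf3, an assembly factor of complex I, was lower in basal cells (−1.05 ± 0.31, at a mean of 31.5 ± 9.90 CPM, SD, n = 3), and lost the call without capture 2 or capture 3 (edgeR quasi-likelihood, Benjamini-Hochberg adjusted p = 0.110 and 0.0657). Among spindle/root cells the calls of Sdhaf4 and Sdhaf1 were lost without capture 3 (0.131 and 0.300), and that of Sdhaf1 without capture 2 (0.0871). Of 20 alternatives, Sdhaf1 lost this call in 9, Ndufa6 in 4, Sdhaf4 in 3 and Cox7a2l in 2.

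The 13 mitochondrial genes moved together across types. In intermediate cells all 13 were higher, with a median log2 difference of 1.06, against 17.5% of all genes. In spindle/root cells 12 were lower and 0 higher, with a median of −1.33, against 9.68% of all genes lower. In marginal cells 1 of the 13, mt-Co1, was called higher (0.31 ± 0.11), against 15.7% of all genes, and the median of the 13 was 0.08. This call was lost in 7 of 17 alternatives, among them DESeq2 and the omission of capture 1. In basal cells edgeR called 0 in either direction, with a median of 0.16, against 15.1% of all genes higher and 10.1% lower. At an unadjusted p under 0.05, 4 were higher in basal cells, DESeq2 called 0 there, and leaving out capture 2 gave 7 higher, where 11.1% of all genes were. Without TMM scaling 13 were higher in intermediate cells (9.29% of all genes) and 12 lower in spindle/root cells (6.15%). Marginal and basal cells then had 3 and 5 higher, where 18.6% and 15.6% of all genes were. In cells with little intermediate RNA 13 were higher in intermediate cells, with a median of 1.79, against 24.8% of all genes. There 13 were lower in spindle/root cells, against 10.7%, and 1 was lower in marginal and 3 in basal cells, against 19.1% and 14.9%.

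As an example, mt-Nd1, a core membrane subunit of complex I, was at 53727, 57225 and 71202 CPM outside mt- genes in intermediate cells. It was at 36743, 40065 and 42553 in marginal, 36318, 39260 and 49501 in basal and 18802 and 17425 in spindle/root cells. Intermediate cells were highest and spindle/root cells lowest without overlap, and marginal and basal cells overlapped. The rarest of the 13, mt-Nd6, which is transcribed from the light strand, was at 106, 112 and 140 in intermediate and 74.3 and 24.6 in spindle/root cells, and was the 1 gene not called in the latter.

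The composition of the mitochondrial part was similar in the SV types, with some differences. In whole cells, mt-Atp6 took 19.3% to 23.8% of the UMIs of the 13 genes over all 11 sums, mt-Co3 16.8% to 19.9%, mt-Co1 13.5% to 18.1%, mt-Nd1 10.5% to 12.0%, mt-Co2 8.83% to 11.3% and mt-Cytb 8.75% to 9.50%. The share of mt-Co1 was 17.0% to 18.1% in marginal, 15.9% to 17.1% in basal, 15.1% to 15.9% in intermediate and 13.5% to 15.2% in spindle/root cells, highest in marginal cells in each capture, which overlapped with basal cells alone. The nuclei had another composition, again alike in the 4 types. There mt-Nd1 took 35.8% to 36.7%, mt-Cytb 29.0% to 29.8% and mt-Nd4 18.0% to 18.4%, while mt-Co1 took 1.21% to 1.28%, mt-Co3 0.728% to 0.767%, mt-Co2 0.356% to 0.412% and mt-Nd3 0.0227% to 0.0428%. Genes that were low in nuclei and not in cells were ones for which the nucleus table lists near-identical copies in the nuclear genome. By sequence, the copies of mt-Co2, mt-Co3 and mt-Atp6 were 100% identical over 681, 783 and 678 aligned bases, that of mt-Co1 was 99.79% identical over 483 bases and that of mt-Nd3 99.71% over 345 bases. A copy of part of mt-Nd4 was 100% identical over 876 bases, although mt-Nd4 was not low in nuclei. The nucleus table lists 15 of 16 such copies and the cell tables list 1. Whether the copies account for the difference was not tested.

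**Figure D5:**
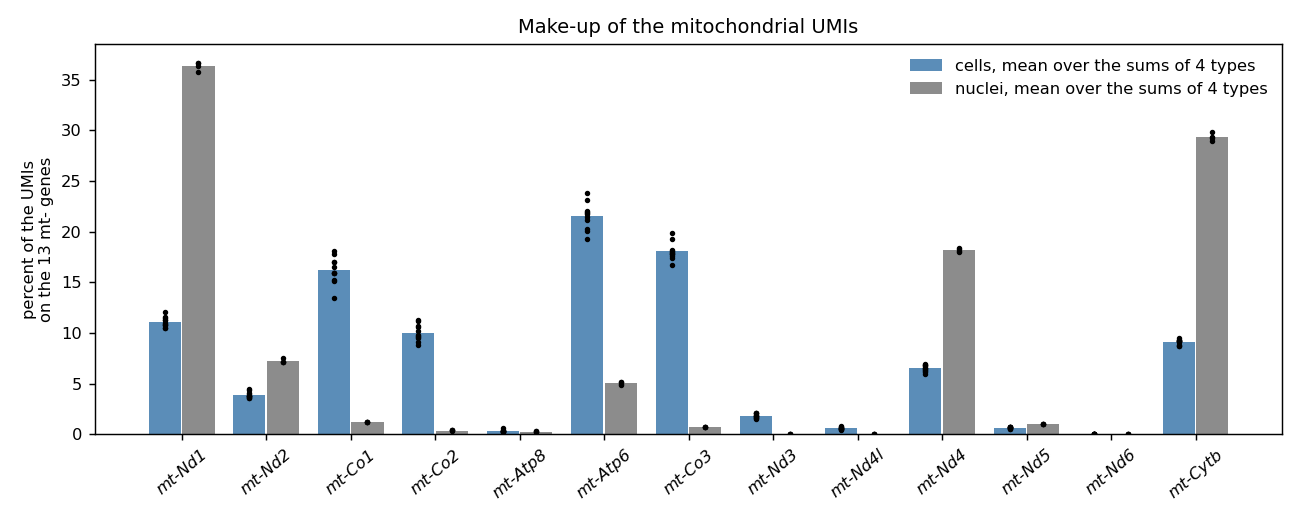
Share of each of the 13 mitochondrial genes in their summed UMIs, for cells and nuclei. Bars are means over the sums of the SV types and each dot is a sum. The shares of the 2 assays did not overlap, except for mt-Atp8 and mt-Nd6. The share of mt-Nd1 was 10.5% to 12.0% in cells and 35.8% to 36.7% in nuclei.

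In the nuclei, mt- genes held 29.7% of UMIs in intermediate, 15.5% in basal, 10.4% in spindle/root and 6.84% in marginal nuclei. These include 24 mt- symbols of ribosomal and transfer RNA that only the nucleus table lists, which made up 3.58% to 4.83% of the mt- UMIs of the 4 types. Nuclear members held 3.52%, 1.82%, 1.45% and 1.67% of UMIs outside mt- genes in the same order. Intermediate nuclei were highest on both measures, unlike the cells, in which marginal cells led for nuclear members, but their value came from unlike clusters. The intermediate nuclei comprised a cluster of 1585 barcodes with 50.3% mt- UMIs, 6.94% nuclear members and 0.776% Malat1, and a cluster of 1306 barcodes with 4.12%, 1.12% and 30.9%, beside a cluster of 168. In nuclei with little intermediate RNA the mt- share was 4.81% in marginal and 4.94% in basal nuclei and nuclear members held 1.56% and 1.09%. With 1 capture, none of these differences has a replicate check.

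The named members also differed between these clusters. Cox8b was at 1518 CPM outside mt- genes in intermediate nuclei (95% Poisson interval 1478 to 1559), 643 in basal (594 to 696), 397 in spindle/root (331 to 473) and 345 in marginal nuclei (328 to 364). Cox7a1 was at 308 CPM in intermediate nuclei (291 to 327), above 173 in marginal nuclei (160 to 186), the reverse of the order in cells. This order rested on the cluster rich in mt- UMIs, which had 626 CPM of Cox7a1 (584 to 670). The cluster of 1306 nuclei rich in Malat1 had 95.3 CPM (81.7 to 111), below the 2164 nuclei of the larger marginal cluster at 125 (113 to 139). Cox8b was likewise at 3065 CPM in the former (2971 to 3161) and 355 in the latter (329 to 384), which was below the basal nuclei and above the larger marginal cluster at 256 (238 to 274). Sdha was at 319 CPM in intermediate nuclei (301 to 338), 277 in marginal (261 to 293), 202 in basal (175 to 232) and 195 in spindle/root nuclei (150 to 251). This order too differed by cluster, with 540 CPM (501 to 581) in the cluster rich in mt- UMIs. The cluster rich in Malat1 had 164 (146 to 183), below the larger marginal cluster at 251 (233 to 270). The smaller marginal cluster of 428 nuclei had 348 CPM of Sdha (313 to 384), 303 of Cox7a1 (271 to 338) and 593 of Cox8b (548 to 640). These intervals cover counting error only.

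Over members with enough UMIs to compare, the level in nuclei was a median of 40.9% of that in cells in marginal, 86.6% in intermediate, 61.0% in basal and 34.8% in spindle/root samples. In the intermediate nuclei the median was 162% in the cluster rich in mt- UMIs and 30.2% in the one rich in Malat1, and in the larger marginal cluster it was 29.5%. A few members departed far from these medians. Cox4i1 and Ndufa13, an accessory subunit of complex I, had 19043 and 8327 UMIs in the cells and 0 in the nuclei. In the annotation GENCODE vM21, 100% of the exon bases of each lie within another gene on the same strand, Gm20388 for Cox4i1 (chromosome 8, 120668222 to 120674207) and Yjefn3 for Ndufa13 (chromosome 8, 69894180 to 69902558). Ndufb8, with 64.6% of its exon bases inside Gm20538, was at 2.55% to 11.5% of its level in cells over the 4 types. Overlap in this annotation and a low nuclear level did not always go together. Ndufb9, with 69.0% of its exon bases inside Gm49356, was at 47.9% to 121%, and Ndufs5, with no such overlap, at 5.90% to 9.62%. Atp5g2, with 4.48% of its exon bases inside another gene, was at 2.21% to 3.09% in all 4 types. Whether the overlapping genes are listed for the nuclei was not checked, and the part of overlap in these levels was not tested.

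Other genes of the pathway were taken from lists set beside the members, which were also chosen with earlier results of these data known. In marginal cells 10 of 18 genes of the citric acid cycle and pyruvate dehydrogenase were higher and 0 lower, against 15.7% of all genes higher, with a median log2 difference of 0.54, among them Dlst (1.41) and Cs (0.94), both enzymes of the cycle. Of the 12 mitochondrial carriers and channels 6 were higher and 0 lower, led by Slc25a12 (2.01), the aspartate-glutamate carrier, and Vdac1 (1.31), the channel of the outer membrane. Of 7 tested electron carriers and ubiquinone genes 3 were higher, among them Cyc1 (0.97), the cytochrome of complex III that the spelling Uqcr leaves out. The mitochondrial ribosome had 1 of 24 higher and 1 lower. Of the 15 tested assembly factors outside the chosen spellings edgeR called 0, with 1 higher at an unadjusted p under 0.05 and 0 called by DESeq2. Of the 5 tested genes of mitochondrial DNA and RNA it called 0, with 1 higher and 1 lower unadjusted and 0 called by DESeq2.

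In intermediate cells 3 of the 18 cycle genes, 1 of the 12 carriers and 6 of the 24 ribosomal genes were higher, against 17.5% of all genes, and 1 carrier was lower. Without TMM scaling the counts were 0, 0 and 1 higher and 4, 6 and 4 lower, against 9.29% and 30.3% of all genes. DESeq2 called 1, 0 and 1 higher, against 11% of all genes. Polg, the mitochondrial DNA polymerase, was higher by 1.60 ± 0.18 and lower in spindle/root cells by −2.10 ± 0.52. In basal cells 12 of 24 ribosomal genes were lower (6 by DESeq2), against 10.1% of all genes, with a median of −0.54, as were 7 of 12 carriers, 5 of 15 assembly factors and 3 of 18 cycle genes, and 2 cycle genes were higher. Cycs, the cytochrome c that carries electrons to complex IV, was lower in basal cells (−0.86 ± 0.14) and higher in intermediate (0.74 ± 0.11) and marginal cells (0.51 ± 0.12). In spindle/root cells 5 of the 18 cycle genes were lower and 0 higher (DESeq2 called 2 lower). Of the genes named here, Dlst lost its call in marginal cells without capture 2, Cs with little intermediate RNA and Cycs at a resolution of 0.4, and Polg lost its call in spindle/root cells without capture 3.

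Of the 5 tested regulators of mitochondrial genes, Ppargc1a, the coactivator PGC-1α, was higher in marginal (1.19 ± 0.19) and intermediate cells (1.28 ± 0.17) and lower in spindle/root cells (−2.09 ± 0.44), the last not called with little intermediate RNA. Esrra, a nuclear receptor with which it acts, was higher in marginal (0.81 ± 0.23) and intermediate (0.55 ± 0.20) and lower in basal cells (−0.82 ± 0.30), but DESeq2 called none of the 3 (Benjamini-Hochberg adjusted p = 0.0514, 0.131 and 0.0844), and without TMM scaling the difference in intermediate cells was 0.20 and not called. Its calls in intermediate and basal cells were also lost without capture 1, 2 or 3, and that in marginal cells without capture 2. Esrrb, the third regulator called in marginal cells (3.77 ± 0.15), is a marker by which marginal cells were named and is no independent measure. The rest of the 5 are not named here. At an unadjusted p under 0.05, 3 of the 5 were higher and 1 lower in marginal and again in intermediate cells. In basal cells 1 was higher and 2 lower, and in spindle/root cells 0 and 2. The adjusted shares of all genes higher were 15.7% in marginal and 17.5% in intermediate cells.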

How the data were processed

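Libraries were prepared with the 10x Genomics 3′ chemistry. The deposited values are raw UMI counts per gene and barcode, whole numbers without normalization, which the authors made with Cell Ranger 2.0.0 on mm10 according to the submitters' processing notes, for each capture before aggregation. Cell Ranger counts only reads that match a single gene, and the annotations of cells and nuclei list different genes.

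At least 200 genes per barcode were required, and the barcodes with the highest Scrublet scores were removed (scanpy 1.11.5), 0.8% for every 1000 barcodes of a capture. Clustering used Seurat 5.3.0 (R 4.3.3) with 2000 variable genes at a resolution of 0.8. Members, mt- genes and, for nuclei, near-identical copies of mt- genes were left out of the variable genes and of the total. Clusters were named from 93 markers of 15 classes, with at least 3 raised markers. The condition that a named cluster reach 50% of the highest level of its own markers was added after marker levels and mt- shares of clusters had been seen, before any test. The cluster of 313 cells with raised marginal markers fell short of it, at a ratio of 0.257. Naming without the condition was not run as an alternative. In the cell files 1 copy of a mt- gene is listed. Leaving it out too gave 12 spindle/root cells, and the choice to keep it was made after counts of called members had been seen. That clustering is given as an alternative.

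UMIs were summed per capture and type with at least 5 cells, which gave 11 sums, and fitted in edgeR 4.0.16 (TMM, filterByExpr, robust quasi-likelihood) with the capture as a block and Benjamini-Hochberg adjustment over all genes tested. For edgeR, the SE is the absolute log2 difference divided by the square root of the F statistic of the test. The sums of a capture come from 1 suspension, which pairs them. Over 3948 genes the deviations of same-capture sums correlated at 0.148 to 0.285 among marginal, intermediate and basal cells and at −0.0146 to 0.0516 with spindle/root cells. The fit and DESeq2 1.42.0 were tested on simulated counts. Intervals for nuclei are exact Poisson at 95% (scipy 1.17.1). Gene positions are from GENCODE vM21 and promoters from RefSeq on GRCm38.p6. Protein sequences were not used here.

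Named were the mitochondrial genes, complex II, subunits with several isoforms, and per type the 4 nuclear members with the largest difference in each direction that passed the test, went the same way in every capture and had at least 50 UMIs. The members and lists were chosen with earlier results of these data known. Alternatives were DESeq2, no filter, no TMM, no block, mt- genes out of the total, other clusterings and filters, each capture left out, and, added after seeing the data, little intermediate RNA and the clustering without the copy.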

Additional observations from a re-analysis of the deposited data

Results flagged for a closer look

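Signal was present in genes that the comparisons above do not use. In the nuclei, 15 near-identical nuclear copies of mitochondrial genes held 20959 UMIs, or 1131 CPM, above the 0.162 CPM that a count of 0 allows. The copy Gm28438, which is 99.71% identical to mt-Nd3 over 345 aligned bases, held 19537 of them. Whether these UMIs came from the copies or from mitochondrial RNA was not tested.

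In the nuclei, 7 symbols that match the chosen spellings but are listed only for nuclei held 803 UMIs, or 43.3 CPM. They are pseudogenes, and Atp5k-ps2 held 559 of these UMIs. Reads that match both a gene and a pseudogene are not counted for either, so the nuclear values of Atp5k are uncertain. Whether such reads were lost was not tested.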

How the results depend on the processing

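Signs were checked for the leading nuclear members named per type and for the mitochondrial genes in intermediate and spindle/root cells. No log2 difference among these changed sign, and other pairs of gene and type were not checked. Without TMM the calls of nuclear members went from 36 higher and 3 lower to 8 and 16 in intermediate cells. In spindle/root cells they went from 6 and 11 to 17 and 5. All genes shifted the same way, from 17.5% higher and 16.7% lower to 9.29% and 30.3% in intermediate cells. In spindle/root cells the shares of all genes went from 12.8% and 9.68% to 16.3% and 6.15%. These counts are on totals that include mt- genes. Over all alternatives, 125 values of the shares in cells stayed close to the reported value and 28 moved. Among the genes checked for sign, 40 calls were lost and 1 was gained. The replicate block moved little. Without it 36 nuclear members were higher in marginal, 26 in intermediate and 4 in spindle/root cells, and 57 were lower in basal cells. Of the 7409 genes tested, 1087, 1190 and 892 were then higher and 663 lower in the same order. No mitochondrial gene was higher in marginal cells without the block. Nuclear members moved as follows. DESeq2 called 27 higher in marginal and 20 in intermediate cells, and 0 mitochondrial genes in marginal cells. Resolution 0.4 gave 12 higher and 12 lower in marginal, 58 higher in intermediate, 29 lower in basal and 2 higher in spindle/root cells. Of 6490 genes tested at that resolution, 1180 were higher in intermediate and 595 in spindle/root cells. The shares in marginal cells were 29.5% on mt- genes and 3.02% of all and 4.28% outside mt- genes on nuclear members, with 2.77% and 3.30% for nuclear members in spindle/root cells. No TMM gave 3 and 5 mitochondrial genes higher in marginal and basal cells. No filter gave 3 higher and 18 lower in spindle/root cells and 3 mitochondrial genes higher in basal cells. Of 15480 genes tested without the filter, 832 were higher and 815 lower in spindle/root cells, and 1344 were higher in basal cells. Little intermediate RNA gave 73 higher and 1 lower in marginal and 2 higher in spindle/root cells (71, 1 and 2 without mt- genes). Of all 3075 genes 561 were higher in spindle/root cells. Without mt- genes, 656 of 3101 were higher and 603 lower in marginal and 541 higher in spindle/root cells. The same cells gave 0 higher and 1 lower mitochondrial genes in marginal and 3 lower in basal cells, and mt- shares of 17.7% in marginal and 17.2% in basal cells. Their nuclear shares were 5.82% of all and 7.05% outside mt- genes in marginal, 2.52% in basal and 3.56% in spindle/root cells.

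At least 500 genes gave 21 higher and 5 lower in intermediate cells, where 1223 and 1299 of all 6546 genes were. It gave 0 mitochondrial genes higher in marginal cells, nuclear shares of 2.87% and 4.56% in intermediate cells, and 16.1%, 2.92% and 3.49% for the 3 shares in spindle/root cells. Resolution 1.2 gave 5 lower in intermediate cells, 0 mitochondrial genes higher in marginal cells, and spindle/root shares of 16.1%, 2.93% and 3.50%. Keeping doublets gave 5 and 0 for the same counts and 16.2%, 2.91% and 3.48% for the same shares. Of all genes, 1247 of 6233 and 1278 of 6236 were lower in intermediate cells under these settings. Clustering without the copy left a lone spindle/root sum, so its counts of called genes are not given. The shares of nuclear members in spindle/root cells were then 2.65% and 3.05%. Members allowed in clustering gave 3 and 4 mitochondrial genes higher in marginal and basal cells and 3.53% in spindle/root cells. A limit of 50% mt- UMIs gave 4 and 10 such genes, a mt- share of 32.0% in intermediate cells and 3.56% in spindle/root cells, and the limit on Malat1 gave 3.54% there. Of all 7414 genes, 1213 were higher in marginal and 1184 in basal cells with members allowed. Under the limit of 50% these were 1186 and 1134 of 7444. Leaving out captures gave 27 to 39 members higher in marginal, 23 to 35 in intermediate and 2 to 8 in spindle/root cells, 42 to 62 lower in basal and 6 to 10 in spindle/root cells, and 0 to 1 and 0 to 7 mitochondrial genes higher in marginal and basal cells. Of the 6912 to 8763 genes tested in these fits, 841 to 1073 were higher in marginal, 977 to 1220 in intermediate and 556 to 939 in spindle/root cells. In basal cells 378 to 600 were lower and 765 to 1063 higher, and in spindle/root cells 364 to 718 were lower. The causes were not tested.

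Depth limits the rarer members, since spindle/root cells were summed from 27 cells of 2 captures, and the nuclei are 1 capture. Intermediate RNA in other types, the naming of clusters and the annotation of nuclei bear on these values, and their part in each was not tested.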

Other observations

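Cells that no marker class named held larger mitochondrial shares than the 4 SV types. In the 192, 673 and 777 unnamed cells of captures 1, 2 and 3, mt- genes took 49.2%, 51.2% and 54.5% of UMIs and nuclear members 7.39%, 7.47% and 6.97% of UMIs outside mt- genes, above each of the 4 SV types in these captures. Malat1 took 1.01%, 1.59% and 1.85% of UMIs outside mt- genes there, and 2.84% to 5.89% in marginal, basal and spindle/root cells. Intermediate markers were at 24482, 16681 and 15089 CPM in the unnamed cells. Among nuclei, the 2322 unnamed barcodes had 41.3% mt- UMIs, 6.14% nuclear members and 2.35% Malat1.

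Fibrocytes of the lateral wall, with 21 and 34 cells in captures 2 and 3, had 25.5% and 22.9% mt- UMIs and 5.33% and 4.54% nuclear members outside mt- genes. Their mt- shares lay below those of marginal and intermediate cells in these captures, and their shares of nuclear members overlapped with both. Macrophages had 3.52%, 2.64% and 2.77% nuclear members, and B cells, from 34 cells of capture 3, had 3.13%.

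Over the 85 tested nuclear members, the mean level was highest in marginal cells for 48, in intermediate cells for 18, in spindle/root cells for 18 and in basal cells for 1, and lowest in basal cells for 57. In cells with little intermediate RNA the level was highest in marginal cells for 79 and lowest in basal cells for 69. These are descriptions of mean levels. The same counts were not made over all genes, so how far the members depart from other genes here was not tested.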
